A study of Mus musculus with 16 samples.

Results

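The interferon-gamma induced GTPases are 10 mouse genes, namely the guanylate-binding protein genes *Gbp2*, *Gbp3*, *Gbp5*, *Gbp6*, *Gbp7* and *Gbp9* and the immunity-related GTPase genes *Igtp*, *Irgm1*, *Irgm2* and *Iigp1*. They were taken by name, with no threshold on a measured value. They are 10 of the 55604 genes listed, and all 10 were among the 16861 genes with enough counts to be tested. RNA was sequenced from tumor-associated macrophages (TAMs) of female C57BL/6 mice that carried ID8 cells, a mouse ovarian cancer line, in the peritoneal cavity. The study's methods give the mice used as 6 to 8 weeks old, without saying whether at inoculation or at sampling. TAMs were taken from the peritoneal wash at 6 to 7 weeks of tumor growth and split by surface Tim-4, a receptor of resident peritoneal macrophages, into Tim-4+ TAMs (n = 4) and Tim-4- TAMs (n = 4). By the study's methods, Tim-4+ TAMs were isolated with an antibody to Tim-4 and magnetic beads, and Tim-4- TAMs were enriched from the remaining cells with beads against the macrophage antigen F4/80, so the 2 groups were not purified in the same way. Both groups came from tumor-bearing mice of the same strain with no genetic change or drug named, so the data hold no tumor-free and no interferon-treated sample. The libraries carry the pair numbers 793, 784, 783 and 779, 1 library per group and pair, and the labels do not say whether a library came from 1 mouse or from pooled mice.

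Interferon-gamma binds a receptor of the subunits IFNGR1 and IFNGR2, and the kinases JAK1 and JAK2 then pass on a signal that acts through gamma-activated sites (GAS) in DNA and raises IRF1. IRF1 and other interferon regulatory factors bind interferon-stimulated response elements (ISRE). Both guanylate-binding proteins (GBPs) and immunity-related GTPases (IRGs) are made in large amounts by macrophages after interferon-gamma, and type I interferon also raises many of them. GBPs are large GTPases that assemble on pathogen vacuoles and on bacteria, and GBPs of the chromosome 3 cluster help to open the way to inflammasome activation. Among the IRGs, *Irgm1*, *Irgm2* and *Igtp* encode the regulatory class, which sits on the cell's own membranes and keeps the effector class inactive there, and *Iigp1* encodes an effector that loads onto vacuoles. Loading of both families needs proteins that conjugate Atg8 proteins in autophagy.

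The sequences before the annotated starts show what the members share outside their proteins. Windows of 250 bases before a RefSeq start (GRCm38.p6) were at hand for 7 of the 10 members, with 2 starts for *Gbp3* and 1 for each of the others. The ISRE letters GAAA, then NN, then GAAA, searched on both strands, stood before at least 1 start of all 7 genes, against 3.46% of 27025 gene symbols with windows of the same length. The GAS letters TTCNNNGAA, which read the same on both strands, stood before 4 of the 7, *Gbp5*, *Gbp7*, *Igtp* and *Irgm2*, against 8.13% of gene symbols, and the 2 motifs do not share bases in any of them. Counted by window, ISRE letters stood in 2.98%, GAS letters in 7.02% and both together in 0.332% of 32851 windows. The bases next to each start are printed 5′ to 3′ on the gene's strand, with the motif letters in capitals, because they show how close to the start and how alike the motif copies are. Each run ends at the base before the start. The runs are 120 bases long, except 170 for *Gbp5*, whose ISRE letters lie farther out.
Gbp2: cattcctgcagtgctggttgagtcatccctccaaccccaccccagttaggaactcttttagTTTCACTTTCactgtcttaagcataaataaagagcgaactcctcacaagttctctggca
Gbp3: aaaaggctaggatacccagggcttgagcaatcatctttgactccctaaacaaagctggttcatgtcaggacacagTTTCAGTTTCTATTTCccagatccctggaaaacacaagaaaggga
Gbp5: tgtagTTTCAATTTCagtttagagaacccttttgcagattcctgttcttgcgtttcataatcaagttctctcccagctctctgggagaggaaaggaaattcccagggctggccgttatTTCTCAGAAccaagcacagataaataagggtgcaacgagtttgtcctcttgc
Gbp7: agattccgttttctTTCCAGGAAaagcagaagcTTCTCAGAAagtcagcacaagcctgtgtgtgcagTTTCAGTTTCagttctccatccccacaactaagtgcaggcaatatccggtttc
Igtp: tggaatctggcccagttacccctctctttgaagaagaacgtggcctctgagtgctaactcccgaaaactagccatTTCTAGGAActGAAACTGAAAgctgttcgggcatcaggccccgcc
Irgm1: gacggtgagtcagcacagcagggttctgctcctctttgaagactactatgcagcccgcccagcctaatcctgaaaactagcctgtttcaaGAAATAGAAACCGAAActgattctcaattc
Irgm2: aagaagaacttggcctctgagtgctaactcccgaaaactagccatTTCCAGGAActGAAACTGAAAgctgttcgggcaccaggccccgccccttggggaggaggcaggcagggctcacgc

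On GRCm38.p6 the printed runs of the chromosome 3 GBPs, all on the plus strand, are chr3:142620543-142620662 for *Gbp2*, chr3:142559924-142560043 for *Gbp3*, chr3:142496764-142496933 for *Gbp5* and chr3:142530216-142530335 for *Gbp7*. Those of the IRGs are chr11:58199436-58199555 for *Igtp* and chr11:58214857-58214976 for *Irgm2*, both on the plus strand, and chr11:48871421-48871540 for *Irgm1* on the minus strand. *Gbp3* and *Irgm1* each hold 2 overlapping copies of the ISRE letters. In *Irgm1* these lie at positions -30 to -15 from the start, nearer than in any other member with a window. A further start of *Gbp3*, downstream of the first, has neither motif in its window, and *Gbp5* has an additional GAS copy outside the printed run, at positions -245 to -237 from its start. The windows of the neighbouring genes *Igtp* and *Irgm2* matched at 134 of 220 aligned bases (60.9%) when shifted by 30 bases, with a longest identical run of 55 bases. In both genes the ISRE letters are the same and follow the GAS letters after 2 bases. These matches describe letters and were not tested for binding. The gene spans given below, from GENCODE, begin farther upstream than the RefSeq starts of *Gbp2*, *Gbp5*, *Irgm1* and *Irgm2*. The motif letters of these genes therefore lie inside those spans. The span of *Gbp3* also begins upstream of its first RefSeq start, but its ISRE letters lie outside the span.

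**Figure D1:**
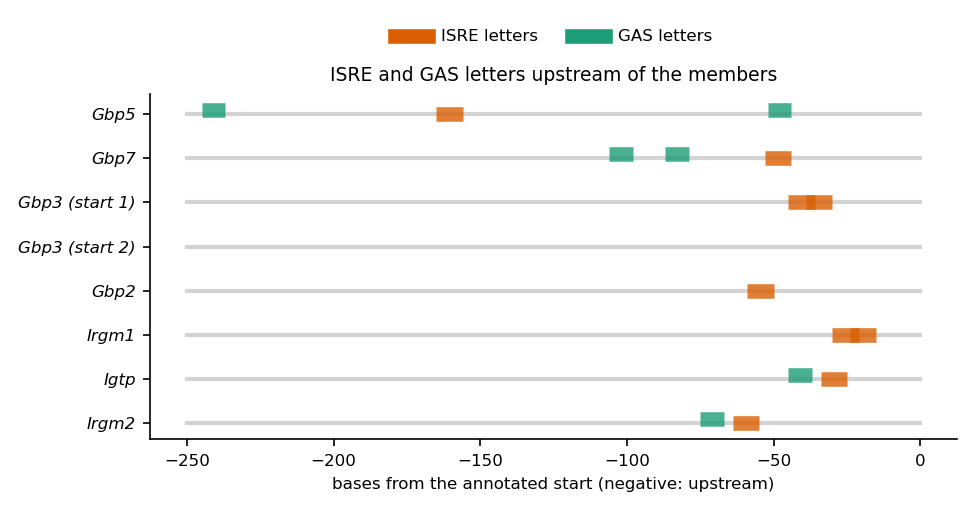
Positions of the ISRE (orange) and GAS (green) letters in the 250 bases before each annotated start; the x axis gives bases from the start and each row is 1 start. All 7 members with a window have ISRE letters, and 4 have GAS letters, while the second start of Gbp3 has neither.

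The separation was checked first. *Timd4*, which encodes Tim-4, was higher in the Tim-4+ library of all 4 pairs, with a log2 fold change of 6.09 (SE 1.08, adjusted p = 0.0167). This and every other adjusted p comes from the quasi-likelihood test of edgeR, adjusted by the Benjamini-Hochberg method over all genes tested, unless another tool is named. Without pair 784 its adjusted p was 0.0845, and its log2 fold change stayed at 5.12 or above with any pair left out. Libraries held 53527928 to 69594245 counts on genes, so 3 counts correspond to 0.0431 to 0.0560 CPM (counts relative to library size, scaled with edgeR's TMM factors throughout, except for this floor). Macrophage markers were abundant in both groups, with a summed level over 7 genes of 43065 to 55630 CPM in the Tim-4+ libraries and 20681 to 33265 CPM in the Tim-4- libraries. All 7 tumor and mesothelial cell markers, the keratin genes among them, were lower in Tim-4+ TAMs, with a summed level of 101 to 376 CPM against 399 to 1887 CPM, and their part in the values below was not tested. The 5 granulocyte markers summed to 1.79 to 3.24 CPM against 1.95 to 2.83 CPM. In bulk samples, fewer cells of a type and less RNA per cell cannot be told apart.

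The 10 GTPase genes were expressed in every library, and the 2 groups lay close together. At an adjusted p under 0.05, none of the 10 was called higher in Tim-4+ TAMs, beside 8.97% of all genes tested. At the same threshold 1, *Irgm1*, was called lower, beside 8.43% (in either direction, 1 of 10 beside 17.4%). With DESeq2 the counts were also 0 and 1. In the edgeR fit 4 members (*Gbp2*, *Gbp5*, *Gbp7* and *Irgm1*) had an unadjusted p under 0.05, beside 5671 of all 16861 genes tested. A share of 1 in 10 is near the share of all genes, so the count is no result about the family. All 10 log2 fold changes lay between -0.40 and 0.42, with a median of 0.19, whereas 63.3% of all genes stayed within 0.5 of 0 and the median of all genes was -0.001. With TMM scaling 8 of the 10 were above 0, and with total-count scaling 1 of 10, in a setting that moved the median of all genes to -0.36 and that of the members to -0.17. Relative to the median of all genes, 8 of 10 were above it under both scalings. Without pair 779 (TMM scaling) the median of the members was 0.04, with 6 of 10 above 0 and 6 of 10 above the median of all genes. In each of the 10 genes the CPM of the 2 groups overlapped, while 12.8% of all genes did not overlap.

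**Figure D2:**
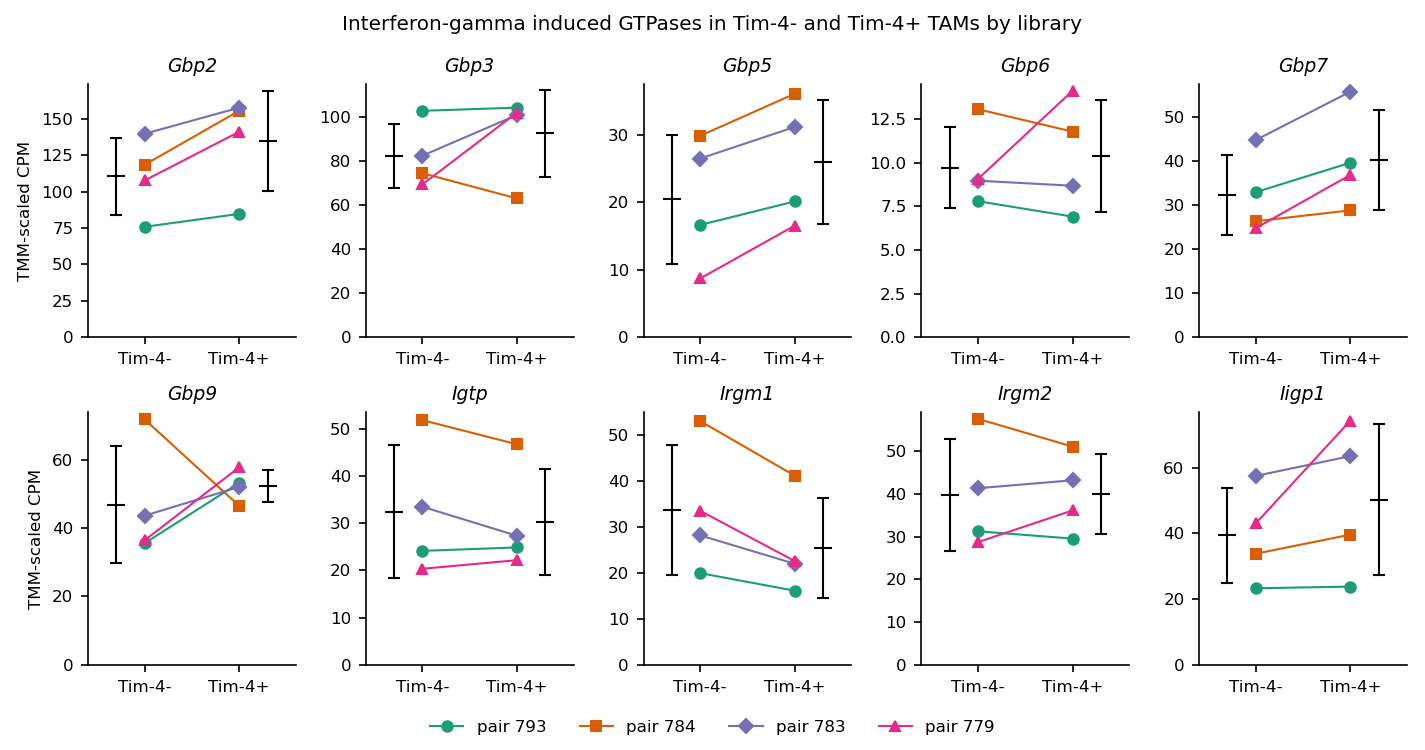
TMM-scaled CPM of the 10 genes in each of the 8 libraries, with lines joining the Tim-4- and Tim-4+ libraries of a pair and black bars giving the mean and SD (n = 4). The groups overlap for every gene; Irgm1 goes down in all 4 pairs, and Gbp2, Gbp5, Gbp7 and Iigp1 go up in all 4 on this scale, of which Gbp2, Gbp7 and Iigp1 have fold changes below 0 with total-count scaling.

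Per kilobase of exon, which allows genes to be compared, *Gbp2* had the highest level of the 10 at 53.5 ± 13.6 CPM per kb in the Tim-4+ libraries and 43.9 ± 10.6 CPM per kb in the Tim-4- libraries (SD, n = 4). *Gbp3* followed with 28.4 ± 6.1 and 25.3 ± 4.5 CPM per kb. *Igtp*, the highest of the 4 IRGs, had 15.0 ± 5.5 and 16.1 ± 6.9 CPM per kb. The order of the first 6 genes by mean, *Gbp2*, *Gbp3*, *Igtp*, *Irgm2*, *Gbp9* and *Iigp1*, was the same in both groups. *Irgm2* was at 10.8 and 10.8 CPM per kb, *Gbp9* at 10.1 and 9.05, and *Iigp1* at 8.64 and 6.77, again in the Tim-4+ and then the Tim-4- libraries. Of these 3, none had a range over libraries clear of the next gene's. *Gbp7* (7.17 and 5.74 CPM per kb) and *Irgm1* (4.38 and 5.79 CPM per kb) traded places between the groups, and their ranges overlapped in both. *Gbp5* stood at 3.91 and 3.08 CPM per kb. *Gbp6* was lowest in both groups with 1.74 and 1.63 CPM per kb. Among neighbours in the order, only *Gbp2* over *Gbp3* and *Gbp5* over *Gbp6* had ranges that did not overlap, both in Tim-4+ TAMs, whereas in Tim-4- TAMs every neighbour overlapped the next. Levels of genes with near copies are uncertain, since reads that aligned to several places were set aside, 20.3% to 24.5% of a lane's reads but 9.11% in lane 2 of the Tim-4- library of pair 779.

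The chromosome 3 GBPs *Gbp2*, *Gbp5* and *Gbp7* were each higher in the Tim-4+ library of all 4 pairs on the TMM scale, as were 22.4% of all genes, and none passed the adjusted test. *Gbp2* (ENSMUSG00000028270.12, GRCm38 chromosome 3, 142620602 to 142638008, plus strand) encodes a GBP that coats vacuoles of *Toxoplasma* and bacteria. Its CPM in pairs 793, 784, 783 and 779 were 84.6, 155.5, 157.6 and 141.0 in the Tim-4+ libraries and 75.8, 118.4, 139.7 and 107.6 in the Tim-4- libraries. Pair 793 was the low pair in both groups. The log2 fold change was 0.28 (95% interval 0.04 to 0.52, adjusted p = 0.0997), and -0.08 with total-count scaling.

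*Gbp5* (ENSMUSG00000105504.4, chromosome 3, 142493978 to 142522344, plus strand) encodes a GBP known for a role in NLRP3 inflammasome assembly. Its CPM were 20.1, 36.1, 31.2 and 16.5 in the Tim-4+ libraries and 16.6, 29.9, 26.5 and 8.71 in the Tim-4- libraries, in the same order of pairs. Pairs 784 and 783 were high in both groups and pair 779 was low. Its log2 fold change of 0.42 (95% interval 0.08 to 0.77, adjusted p = 0.0870) was the largest among the 10 and stayed above 0 with total-count scaling at 0.07. It fell to 0.26 without pair 779, in which the log2 ratio of the 2 libraries was 0.93, against 0.23 to 0.27 in the other pairs.

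*Gbp7* (ENSMUSG00000040253.15, chromosome 3, 142530342 to 142550149, plus strand) encodes another vacuole-coating GBP. Its CPM were 39.6, 28.8, 55.8 and 36.9 in the Tim-4+ libraries and 32.9, 26.3, 44.8 and 24.8 in the Tim-4- libraries. Pair 783 was highest in both groups, and pair 784, the high pair of *Gbp5*, was lowest in Tim-4+ TAMs. Tim-4+ over Tim-4- gave a log2 fold change of 0.32 (95% interval 0.06 to 0.58, adjusted p = 0.0870), and -0.04 with total-count scaling. Of its 50-base stretches, 12.7% also occur in transcripts of other genes, mostly in the pseudogene *Gm43802* within its span.

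*Gbp3* (ENSMUSG00000028268.14, chromosome 3, 142560026 to 142573209, plus strand), a further member of the same cluster, did not move one way. Its CPM were 104.5, 63.1, 101.1 and 102.3 in the Tim-4+ libraries and 103.0, 74.6, 82.6 and 69.5 in the Tim-4- libraries. The Tim-4+ library of pair 784 stood below the other 3 Tim-4+ libraries, and pair 784 was the one pair in which Tim-4+ was below Tim-4-. Its log2 fold change was 0.16 (95% interval -0.17 to 0.48, adjusted p = 0.483), with -0.20 under total-count scaling and 0.02 without pair 779.

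*Gbp9* and *Gbp6* belong to the chromosome 5 cluster, and neither showed a difference between the groups beyond its spread. *Gbp9* (ENSMUSG00000029298.15, chromosome 5, 105077630 to 105139539, minus strand) had CPM of 53.2, 46.5, 52.0 and 57.8 in the Tim-4+ libraries and 35.6, 71.7, 43.6 and 36.4 in the Tim-4- libraries. Its Tim-4- library of pair 784 was the highest of all 8 and its Tim-4+ library of that pair the lowest Tim-4+ library, so this pair ran against the other 3. *Gbp9* had a log2 fold change of 0.22 (95% interval -0.29 to 0.74, adjusted p = 0.522), 0.50 without pair 784 (adjusted p = 0.0932) and -0.13 with total-count scaling. *Gbp6* (ENSMUSG00000104713.4, chromosome 5, 105270702 to 105293698, minus strand) had CPM of 6.91, 11.8, 8.68 and 14.1 in the Tim-4+ libraries and 7.79, 13.1, 8.97 and 9.07 in the Tim-4- libraries. It was lower in the Tim-4+ library in 3 pairs and higher in pair 779 only. Its log2 fold change was 0.07 (95% interval -0.36 to 0.49, adjusted p = 0.837), and it was -0.13 without pair 779 and -0.29 with total-count scaling. The counts of *Gbp6* are uncertain, because its exons overlap those of *Gm43302* over 29.0% of their length on the same strand and 70.7% of its 50-base stretches occur in other transcripts.

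Among the regulatory IRGs, *Irgm1* was the only member that passed the test. It encodes a GTPase that protects the cell's own membranes and supports macrophage defense against mycobacteria. *Irgm1* (ENSMUSG00000046879.7, chromosome 11, 48861968 to 48871683, minus strand) had CPM of 16.1, 41.1, 22.0 and 22.6 in the Tim-4+ libraries and 19.9, 53.0, 28.2 and 33.5 in the Tim-4- libraries. Tim-4+ was below Tim-4- in all 4 pairs, as for 20.2% of all genes, and the log2 ratios within pairs ran from -0.57 to -0.31. The groups overlapped, with pair 784 high in both. The log2 fold change was -0.40 (SE 0.11, 95% interval -0.65 to -0.15, adjusted p = 0.0401), a level 0.758 times that of Tim-4- TAMs. With total-count scaling it was -0.76 (adjusted p = 0.0111), and with DESeq2 the adjusted p was 0.0103. The call did not hold with any 1 of the 4 pairs left out (adjusted p from 0.0687 without pair 783 to 0.129 without pair 779), with lane 1 alone (adjusted p = 0.0827) or without the pair block (adjusted p = 0.577), although the log2 fold change stayed between -0.43 and -0.33 in these fits.

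The other regulatory IRGs did not differ beyond their spread with TMM scaling. *Igtp* (ENSMUSG00000078853.8, chromosome 11, 58199556 to 58207591, plus strand) had CPM of 24.9, 46.7, 27.3 and 22.2 in the Tim-4+ libraries and 24.1, 51.8, 33.5 and 20.4 in the Tim-4- libraries. Tim-4+ over Tim-4- was -0.07 on the log2 scale (95% interval -0.34 to 0.20, adjusted p = 0.716), and it was lower in 2 pairs and higher in 2. With total-count scaling it was -0.43 (adjusted p = 0.0319), close to the shift of all genes under that scaling. *Irgm2* (ENSMUSG00000069874.7, chromosome 11, 58199618 to 58222782, plus strand) had CPM of 29.5, 51.0, 43.2 and 36.1 in the Tim-4+ libraries and 31.2, 57.5, 41.3 and 28.7 in the Tim-4- libraries. Tim-4+ over Tim-4- was 0.03 on the log2 scale (95% interval -0.24 to 0.31, adjusted p = 0.869), and -0.32 with total-count scaling. In both genes pair 784 was the highest in each group. *Igtp* shares 11.8% of its 50-base stretches with *Irgm2*, and their exons overlap over 162 bases on the same strand. Reads from these shared parts could be missing from the counts of both genes.

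*Iigp1*, the effector IRG among the members (ENSMUSG00000054072.11, chromosome 18, 60376027 to 60392634, plus strand), ranged widely between pairs. Its CPM were 23.8, 39.6, 63.5 and 74.3 in the Tim-4+ libraries and 23.3, 33.8, 57.5 and 43.0 in the Tim-4- libraries. Pair 793 was lowest in both groups, and the highest Tim-4+ library was 3.12 times the lowest. The log2 fold change was 0.30 (95% interval -0.03 to 0.62, adjusted p = 0.180), 0.13 without pair 779 and -0.06 with total-count scaling. Pair 784, the high pair of the regulatory IRGs, was not a high pair for *Iigp1*.

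Summed over the 10 genes, Tim-4+ TAMs held 403.3 to 562.3 CPM and Tim-4- TAMs 370.4 to 530.2 CPM. The 6 GBPs summed to 309.0 to 406.3 CPM against 256.1 to 346.2 CPM, and the 4 IRGs to 94.4 to 178.5 CPM against 98.6 to 196.2 CPM. The sums overlapped between the groups in each case. On the TMM scale the median log2 fold change was 0.25 for the GBPs (0.07 to 0.42) and -0.02 for the IRGs (-0.40 to 0.30). With total-count scaling all GBPs but *Gbp5* were below 0, and the difference between the families was not tested.

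Most of the spread of these genes lay between pairs. When the sum of squares of log2 CPM over the 8 libraries was split, pairs took more than the Tim-4 groups in 10 of 10 members, as in 69.7% of all genes. The median share of pairs was 83.4% in the members against 52.4% in all genes, and that of the Tim-4 groups was 9.88% against 19.0%. *Igtp* had the largest share for pairs, 96.4%, with 0.545% for the Tim-4 groups. *Irgm2* followed with 92.2% and 0.256%. *Gbp9* was the exception, with 23.6% for pairs, 11.8% for the Tim-4 groups and 64.6% for the remainder, since its pair 784 ran against the others. The split is between 4 pairs but only 2 groups, so pairs can take the larger share without any pair effect. The shares are therefore read beside those of all genes. They describe 8 libraries and carry no test.

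**Figure D3:**
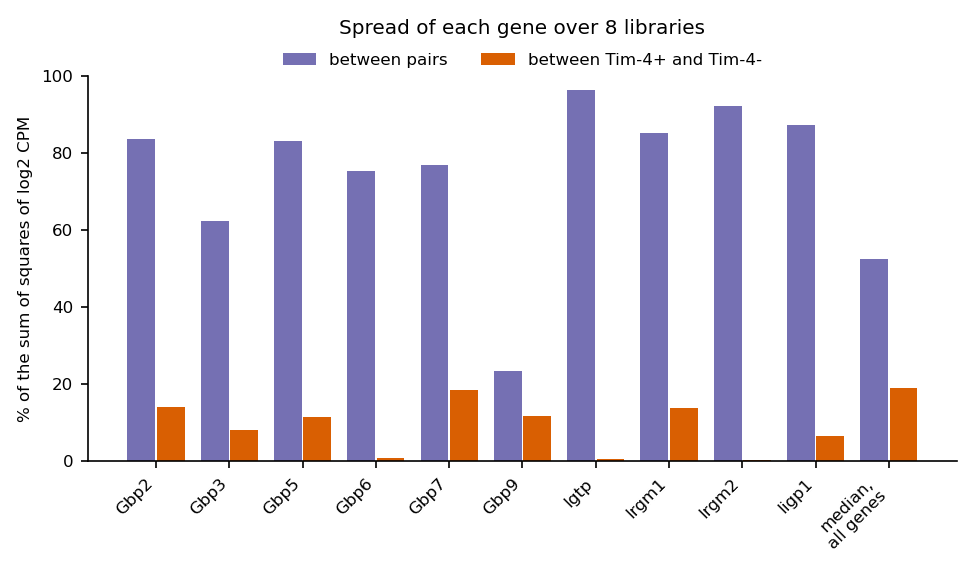
Percent of the sum of squares of log2 CPM over 8 libraries that lies between the 4 pairs (purple) and between Tim-4+ and Tim-4- TAMs (orange), for each gene and as the median over all genes tested. The share of pairs is above that of the Tim-4 groups in each of the 10 genes and ranges from 23.6% (Gbp9) to 96.4% (Igtp). Pairs outnumber groups, which by itself favors their share.

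The members were not all high in the same pair. Of the 10 genes, 6 had their highest pair mean in pair 784, as had 27.4% of all genes, and these were *Gbp5*, *Gbp6*, *Gbp9*, *Igtp*, *Irgm1* and *Irgm2*. *Gbp2*, *Gbp7* and *Iigp1* were highest in pair 783, and *Gbp3* was highest in pair 793. Pair 793 was the lowest for 6 members. By comparison, all 20 target genes of type I interferon on the list used here were highest in pair 784. The pair means of *Gbp5*, *Irgm1* and *Iigp1* spanned 1.45, 1.38 and 1.36 on the log2 scale, each more than 3 times the difference between the Tim-4 groups in the same gene.

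The other GBP and IRG genes of the mouse place the members in their families. Of 18 further genes, all tested, 3 were called higher and 0 lower in the Tim-4+ group, beside 8.97% and 8.43% of all genes tested. Their median log2 fold change was 0.12. DESeq2 called 5 higher and 1 lower. In the edgeR fit 8 of the 18 had an unadjusted p under 0.05, beside 5671 of all 16861 genes tested. With total-count scaling 2 were higher and 3 lower, and without pair 784 or 779 none of the 18 was called higher. *Gm4841*, an IRG-like gene of the *Iigp1* region, had CPM of 4.12, 4.86, 5.41 and 13.3 in the Tim-4+ libraries and 1.80, 2.71, 2.61 and 2.15 in the Tim-4- libraries. It was higher in every Tim-4+ library than in any Tim-4- library (log2 fold change 1.42, SE 0.33, adjusted p = 0.0258). Groups did not overlap, in either direction, for 12.8% of all genes. *Gbp2b*, which lies next to *Gbp2*, had CPM of 153.3, 60.8, 133.6 and 238.6 against 98.0, 14.0, 65.2 and 69.9. Its groups overlapped, yet Tim-4+ was higher in all 4 pairs, as for 22.4% of all genes (log2 fold change 1.39, SE 0.25, adjusted p = 0.0167). Pair 784, high for many members, was the lowest pair of *Gbp2b*. *9930111J21Rik2* had 63.0 ± 12.5 CPM against 40.2 ± 11.3 CPM (SD, n = 4), with a log2 fold change of 0.66 (adjusted p = 0.0325), or 0.30 with total-count scaling (adjusted p = 0.157). With a pair left out, the adjusted p reached 0.0869 for *Gm4841* (without pair 784), 0.0746 for *Gbp2b* (without pair 779, and 0.0726 without pair 784) and 0.114 for *9930111J21Rik2* (without pair 793).

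By genome position, the 5 GBP genes of the chromosome 3 cluster (the members *Gbp2*, *Gbp3*, *Gbp5* and *Gbp7*, and *Gbp2b*) all had log2 fold changes above 0 on the TMM scale, with a median of 0.32. The 1 call among them, higher in Tim-4+ TAMs, stands beside 8.97% of all genes tested. Of the 5, *Gbp2*, *Gbp3* and *Gbp7* were below 0 with total-count scaling. The 6 GBP genes of the chromosome 5 cluster had a median of -0.04, with 3 above 0, 3 below and 0 calls. At an unadjusted p under 0.05 (edgeR) there were 0, beside 5671 of all 16861 genes tested. The difference between the clusters was not tested.

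**Figure D4:**
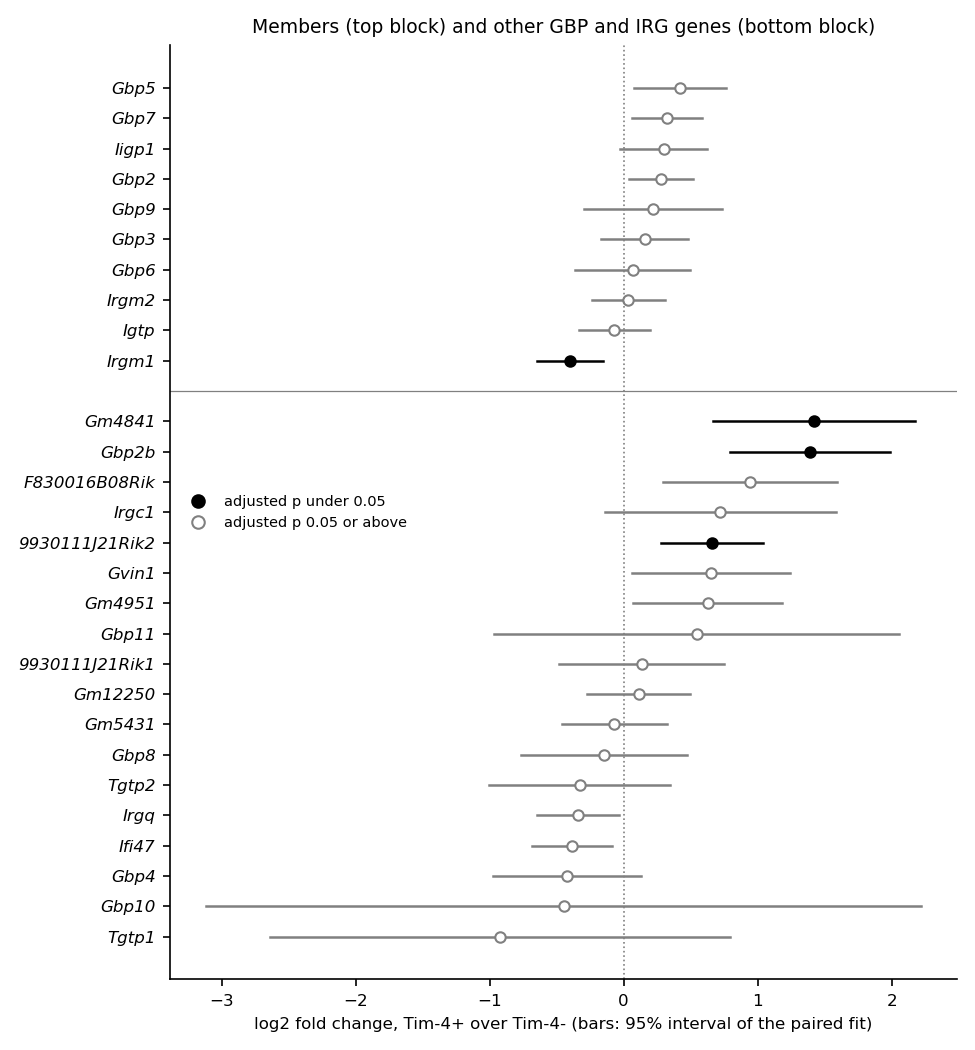
Log2 fold change of Tim-4+ over Tim-4- TAMs with its 95% interval (edgeR paired fit, TMM scaling) for the 10 members (top) and 18 other GBP and IRG genes (bottom), where filled points have an adjusted p under 0.05. The members stay between -0.40 and 0.42, whereas Gm4841 and Gbp2b reach 1.42 and 1.39; with total-count scaling all members but Gbp5 are below 0.

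RNA of the inducer itself was near the limit of detection in these macrophage-enriched libraries. *Ifng*, the gene of interferon-gamma, had 0 counts in all 4 Tim-4+ libraries, which allows a level of up to 0.0519 to 0.0560 CPM, and 0, 2, 2 and 3 counts in the Tim-4- libraries of pairs 793, 784, 783 and 779. These numbers were too low for a test. Markers of the cells that usually make interferon-gamma were low too. The 7 T cell markers summed to 0.420 to 3.27 CPM in the Tim-4+ libraries and 4.11 to 11.2 CPM in the Tim-4- libraries, most of it *Cd4*, with *Cd3d*, *Cd3e* and *Cd3g* each at 0.535 CPM or below. The 6 natural killer and innate lymphoid cell markers summed to 0 to 0.274 CPM and 0.180 to 0.451 CPM. RNA of isolated macrophages does not measure interferon-gamma made by other cells of the peritoneal cavity. The paper reports interferon-gamma expression in tumor-infiltrating T cells of ID8-bearing mice.

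The receptor, by contrast, was well expressed in both groups. *Ifngr1*, the ligand-binding subunit, had CPM of 146.5, 99.4, 153.7 and 150.7 in the Tim-4+ libraries and 169.4, 88.8, 167.6 and 138.5 in the Tim-4- libraries, with a log2 fold change of -0.01 (95% interval -0.27 to 0.24, adjusted p = 0.952). With total-count scaling it was called at -0.37 (adjusted p = 0.0209), close to the shift of all genes there. Pair 784 was low in both groups, the reverse of its rank for the regulatory IRGs. *Ifngr2*, the signaling subunit, had a log2 fold change of 0.08 (95% interval -0.15 to 0.31, adjusted p = 0.628), or -0.28 with total-count scaling. None of the 4 tested ligand, receptor and kinase genes was called by edgeR or DESeq2 with the main scaling of each. By edgeR 17.4% of all genes tested were called. An unadjusted p under 0.05 was found for 0 of the 4, beside 5671 of all 16861 genes tested (edgeR).

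Of the transcription factor genes downstream of the receptor, *Irf1* and *Ciita* are described. *Irf1*, which encodes a factor that binds ISRE letters, had CPM of 212.7, 64.2, 123.2 and 481.5 against 272.0, 73.6, 120.8 and 307.3. It differed between pairs far more than between groups (log2 fold change 0.03, 95% interval -0.37 to 0.43, adjusted p = 0.928), with -0.33 under total-count scaling and -0.18 without pair 779. Its lowest pair in both groups was 784, the highest for 6 members. *Ciita*, the master regulator of MHC class II genes, was lower in Tim-4+ TAMs with 15.6 ± 13.1 CPM against 46.5 ± 20.1 CPM (SD, n = 4, log2 fold change -1.78, adjusted p = 0.0141), and its adjusted p was 0.0787 at most with a pair left out.

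None of the 5 genes for inhibitors of interferon-gamma signaling, the SOCS proteins and tyrosine phosphatases, was called by edgeR, beside 17.4% of all genes tested. At an unadjusted p under 0.05 there were 2, beside 5671 of all 16861 genes tested, and DESeq2 called 1 higher.

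Other target genes of interferon-gamma moved in both directions. Of 22 genes, 20 were tested, 2 were higher and 5 lower in Tim-4+ TAMs, with a median log2 fold change of -0.13. With total-count scaling 2 were higher and 10 lower, and without pair 784 none was called in either direction. The 4 largest changes among the calls were in genes of the MHC class II pathway, all lower. The 2 calls higher had log2 fold changes of 0.87 and 0.91. *H2-Eb1*, an MHC class II chain, had 459.8 ± 342.2 CPM in the Tim-4+ libraries and 1463 ± 683 CPM in the Tim-4- libraries (SD, n = 4, log2 fold change -1.91, adjusted p = 0.00875). *H2-Aa* and *H2-Ab1*, further chains, had log2 fold changes of -1.86 and -1.43 (adjusted p = 0.0104 and 0.0176), and *Cd74*, their chaperone, had -1.53 (adjusted p = 0.0185, and 0.0693 with DESeq2). With a pair left out, the adjusted p of these 4 genes reached 0.0676 to 0.107. The 5 dendritic cell markers summed to 4.60 to 23.1 CPM in the Tim-4+ libraries and 9.73 to 16.9 CPM in the Tim-4- libraries, and the 4 B cell markers to 4.53 to 13.3 CPM and 9.99 to 16.6 CPM, and the part of these cells in the MHC class II values was not tested.

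Type I interferon also raises GTPase genes, and its other targets were examined as a list. Of 20 target genes, 6 were called higher and 0 lower in Tim-4+ TAMs, beside 8.97% and 8.43% of all genes tested. The median log2 fold change was 0.22, and DESeq2 likewise called 6 and 0. With total-count scaling 2 were higher and 3 lower, and without pair 784 the number higher was 1. *Rsad2*, the gene of the antiviral protein viperin, had CPM of 53.3, 158.4, 34.2 and 72.1 in the Tim-4+ libraries and 19.9, 55.5, 17.9 and 22.4 in the Tim-4- libraries. Pair 784 was high in both groups, and Tim-4+ was higher in all 4 pairs, as for 22.4% of all genes (log2 fold change 1.39, SE 0.14, adjusted p = 0.00394). *Irf7*, which amplifies the type I interferon response, had a log2 fold change of 1.13 (adjusted p = 0.00637), *Cmpk2* 0.67 (0.0214) and *Rtp4* 0.58 (0.0191). With total-count scaling *Cmpk2* was at 0.31 (adjusted p = 0.102) and *Rtp4* at 0.22 (adjusted p = 0.167). Among the 4, *Rsad2* kept its call with each pair left out (adjusted p 0.0466 at most), whereas those of *Irf7*, *Cmpk2* and *Rtp4* reached 0.0514, 0.115 and 0.0932. *Ifnar2*, a subunit of the type I interferon receptor, was higher in Tim-4+ TAMs with 134.2 ± 14.3 CPM against 72.4 ± 7.6 CPM (SD, n = 4, log2 fold change 0.89, adjusted p = 0.00875, and 0.0623 at most with a pair left out). It was the 1 call among 3 tested genes of the ligand, receptor and kinase list, beside 17.4% of all genes called in either direction.

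Genes that act with the GTPases were also examined. Among 10 genes of the Atg8 conjugation machinery and its substrates, which GBPs and IRGs need to reach vacuoles, 3 were called higher and 0 lower in the Tim-4+ group. These counts stand beside 8.97% and 8.43% of all genes tested. In the edgeR fit 4 had an unadjusted p under 0.05, beside 5671 of all 16861 genes tested, and DESeq2 called 3 and 0. With total-count scaling 0 were higher and 4 lower, and without pair 793, 784 or 779 none was called. *Gabarap*, an Atg8 protein, had a log2 fold change of 0.53 (adjusted p = 0.0252), *Atg7*, the activating enzyme, 0.51 (0.0368) and *Atg3*, the conjugating enzyme, 0.50 (0.0203). Of 8 inflammasome genes, 2 were called higher and 0 lower, beside the same shares of all genes. An unadjusted p under 0.05 was found for 5, beside the same 5671 of all 16861 genes, and DESeq2 called 3 and 0. With total-count scaling 1 was higher and 1 lower, and without pair 784 or 779 none was called. *Nlrp3*, the sensor, had 322.2 ± 134.4 CPM against 171.6 ± 99.3 CPM (SD, n = 4, log2 fold change 0.95, adjusted p = 0.0319), and *Pycard*, the adaptor, had a log2 fold change of 0.61 (adjusted p = 0.0446). With a pair left out, the adjusted p of these 5 genes reached 0.0882 to 0.171. The log2 fold changes of *Gabarap*, *Atg7*, *Atg3* and *Pycard* were 0.14 to 0.25 with total-count scaling, none of them called.

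**Figure D5:**
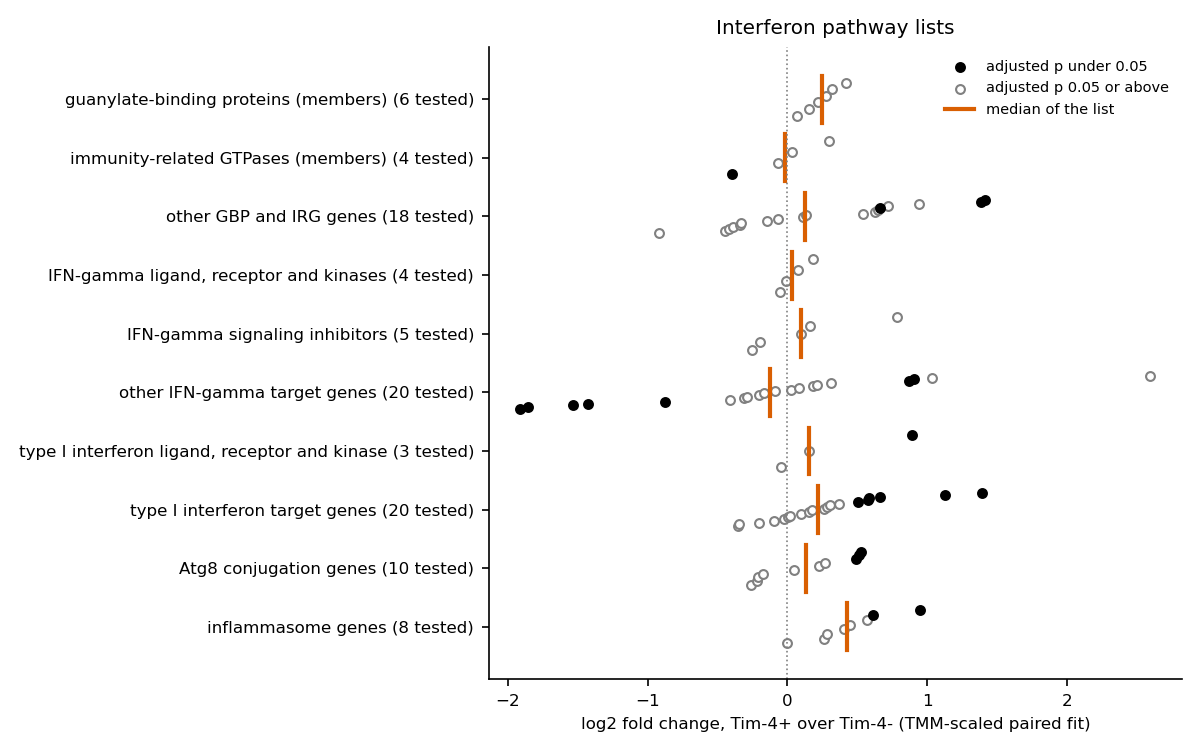
Log2 fold change of Tim-4+ over Tim-4- TAMs (x axis, TMM scaling) for each tested gene of 10 lists, with filled points for an adjusted p under 0.05 and an orange line at the median of a list. The 10 members sit within 0.5 of 0, while other interferon-gamma targets run from -1.91 to 2.60 (the latter not called) and type I interferon targets from -0.35 to 1.39.

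Outside the 2 families, the genes whose log2 CPM followed the mean pattern of the 10 members most closely over the 8 libraries were *Hook3*, *AI987944*, *Ctsc*, *Coa5* and *Brcc3*. The mean pattern was lowest in both libraries of pair 793 and the Tim-4- library of pair 779, at -0.27, -0.35 and -0.34 on the log2 scale from its own mean, and highest in both libraries of pair 784, at 0.22 and 0.29. *Hook3*, which links cargo to microtubule motors, and *AI987944* differed from it by a root-mean-square of 0.111, *Ctsc*, the gene of the protease cathepsin C, by 0.120, *Coa5*, a cytochrome c oxidase assembly factor, by 0.126 and *Brcc3*, a deubiquitinase, by 0.134. The median over 10258 candidate genes with at least 5 CPM was 0.410. Among the members themselves the distance ran from 0.151 for *Irgm2* to 0.488 for *Iigp1*. *Gbp3* (0.421), *Gbp5* (0.451), *Irgm1* (0.455) and *Iigp1* lay beyond the median of the candidates, and the other members lay below it. The mean is therefore not the pattern of each member. The 5 genes were picked for the smallest distance, so that they lay nearer to the mean than any member is no result. The likeness is a description over 8 libraries and carries no test.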

How the data were processed

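The 8 libraries (4 Tim-4+ and 4 Tim-4- TAM samples) were each sequenced in 2 lanes of paired reads of 50 cycles after removal of ribosomal RNA. The files deposited by the authors hold, for every lane, whole read counts of each gene without normalization. The submitters' processing notes name FastQC 0.11.3, TopHat2 2.0.13, Cufflinks and Cuffdiff 2.2.1 and the builds GRCm38 and mm10. The read counter and its use of strand are not given in the sources used here. Lanes were summed, and the 1 lane listed by symbol was joined by row order (96.9% of symbols matched at the same place). Genes were named from GENCODE M21 (98.4% of identifiers found).

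Genes that reached 10 counts in 4 or more of the 8 libraries were tested with edgeR 4.0.16 in R 4.3.3 (robust quasi-likelihood fit, TMM factors, the pair number as a block, Benjamini-Hochberg adjustment over 16861 genes), with an adjusted p under 0.05 as the threshold for a call. The SE is the log2 fold change divided by the square root of F. The libraries of a pair deviated together from their group means (r over genes 0.471, 0.498, 0.408 and 0.277), so the numbers from the labels were used as pairs. DESeq2 1.42.0, other scalings, filters, lanes and each pair left out were alternatives, and leaving out the lane listed by symbol was added after the data were seen. The calculation was tested on simulated data. Nothing says whether pairs are separate mice, so p-values measure the spread between these libraries, and floors cover counting error only.

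The members and lists were chosen with earlier results of these data known. Named genes are the members, *Timd4*, *Ifng*, *Ifngr1*, *Ifngr2* and *Irf1*, at most 4 called genes per list with the largest change and at least 1 CPM on average, and the 5 genes nearest in pattern. A further gene of this rule is not reported here.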

Additional observations from a re-analysis of the deposited data

Results flagged for a closer look

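In each group of 4 libraries of a named gene, the gap of the farthest library to its neighbour was compared with the range by Dixon's test at its 95% critical value. Of 77 groups tested, 6 had a library that stood apart, and chance gives about 1 in 20. *Gbp3* was at 63.15 CPM in the Tim-4+ library of pair 784, against 101.1 to 104.5 CPM in the other 3. *Ifngr1* was at 99.4 CPM in the same library, against 146.5 to 153.7 CPM. *Gm4841* was at 13.3 CPM in the Tim-4+ library of pair 779, against 4.12 to 5.41 CPM. *Rsad2* was at 55.54 CPM in the Tim-4- library of pair 784, against 17.9 to 22.4 CPM. *Nlrp3* was at 319.2 CPM in the Tim-4- library of pair 793, against 103.4 to 136 CPM. *Hook3* was at 57.24 CPM in the Tim-4+ library of pair 793, against 67.05 to 68.11 CPM.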

How the results depend on the processing

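Over all genes, 1512 were higher and 1421 lower in Tim-4+ TAMs. Without the pair block these were 147 and 85, the members had 0 calls lower, the other lists 1 higher and 0 lower, and the log2 fold change of *Irgm1* was -0.40 without its call (adjusted p = 0.577). With total counts there were 789 higher and 4906 lower, so that 13.9% of calls were higher in place of 51.6%, and the members had 2 calls lower and the other lists 8 higher and 27 lower. In that setting log2 fold changes were -0.079 for *Gbp2*, -0.20 for *Gbp3*, -0.29 for *Gbp6*, -0.036 for *Gbp7*, -0.13 for *Gbp9*, -0.32 for *Irgm2*, -0.061 for *Iigp1*, -0.28 for *Ifngr2* and -0.33 for *Irf1*, and *Igtp* was called at -0.43. DESeq2 called 2194 higher and 2328 lower. With lane 1 alone *Irgm1* was at -0.33 and not called, which left 0 members called, and *Irgm2* was at -0.014.

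With each pair left out in turn, 78 to 1573 genes were higher and 54 to 1895 lower, both fewest without pair 784, the members had 0 calls lower, and the other lists 1 to 22 higher (17 with all pairs) and 0 to 5 lower (7 with all pairs). The log2 fold change was -0.43 to -0.35 for *Irgm1*, -0.13 to 0.15 for *Gbp6*, -0.069 to 0.10 for *Irgm2*, -0.075 to 0.057 for *Ifngr1* and -0.18 to 0.16 for *Irf1*, and that of *Gbp6*, *Irgm2* and *Irf1* was below 0 without pair 779 (-0.13, -0.069 and -0.18). Without pair 793 or 783 *Ifngr1* was at 0.057 and 0.018. The causes were not tested, beyond the smaller number of libraries in these fits. Counts of single lists moved too. With a pair left out, calls higher numbered 1 to 6 of the type I interferon targets (6 with all pairs), 0 to 5 of the other GBP and IRG genes (3) and 0 to 3 of the Atg8 conjugation genes (3), the inflammasome genes (2) and the other interferon-gamma targets (2), of which 0 to 4 were lower (5), and each was at its lowest without pair 784. Without the pair block each of these counts was 0. The other log2 fold changes of members kept their direction and side of the threshold, under the alternatives run.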
